A study of Homo sapiens with 12 samples.

Results

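ANPEP (alanyl aminopeptidase, also called CD13 or aminopeptidase N) and 8 further peptidases were measured in 4 stable lines derived from A549, which is a human cell line of lung adenocarcinoma. These 9 genes were taken by symbol from the 60623 genes of the count table. ANPEP was placed in the group because its transcript was much higher in the AHR lines than in the vector line, so its values against that line are given as a description without a test. The other 8 genes, ENPEP, DPP4, MME, LNPEP, ERAP1, ERAP2, RNPEP and NPEPPS, were listed as peptidases of related function. The name of membrane aminopeptidases fits some of them better than others, since DPP4 removes dipeptides, MME cuts inside peptides, and RNPEP and NPEPPS are not anchored in the membrane.

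The 4 lines were made from A549 by lentiviral infection and selection with 200 ug/ml hygromycin for 72 h. V carried the empty vector pLV-EF1a-IRES-Hygro, WT carried HA-tagged wild-type AHR (the aryl hydrocarbon receptor, a ligand-activated transcription factor), SA carried HA-AHR S489A, in which the serine that PLK1 phosphorylates is lost, and SD carried HA-AHR S489D, which mimics the phosphorylated residue. Each line gave 3 libraries of poly(A) RNA that the labels call biological replicates, 12 in all, and every line also has the AHR of A549 itself. Each construct was carried by 1 line, so what the construct did and what else set that line apart cannot be told apart, and p-values measure the spread between libraries of a line. In bulk RNA, a larger share of cells with a transcript and more of it in each cell cannot be told apart either.

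Aminopeptidases remove single residues from the amino end of peptides, and most of the genes here encode zinc metallopeptidases of the M1 family. On the cell surface, ANPEP, ENPEP, DPP4 and MME shorten circulating and local peptides, among them angiotensins, enkephalins, kinins and chemokines. ENPEP takes the acidic first residue from angiotensin II, ANPEP trims the product further, and LNPEP binds the shorter form. Inside the cell, ERAP1 and ERAP2 trim peptides in the endoplasmic reticulum for presentation by MHC class I molecules. ANPEP is known from myeloid cells, fibroblasts and several epithelia.

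The libraries held between 7844045 and 11765576 expected counts (reads assigned to genes by RSEM, which divides a read among the genes it fits). At these depths 3 counts, the limit that a count of 0 allows, equal 0.255 to 0.382 CPM (counts as a share of the library, on a common scale), and this limit covers counting error only. Levels are given below as CPM with TMM-normalized library sizes. Libraries of the same line differed by more than counting noise in every pair, with a chi-square per degree of freedom between 2.503 and 6.881, highest between SD replicates 1 and 3. The introduced AHR was read as the sum of AHR and ENSG00000283321, a gene that overlaps it. For V this sum was 69.1 ± 4.51 CPM (mean ± SD, n = 3 libraries here and below), for WT 469 ± 16.4, for SA 393 ± 18.9 and for SD 296 ± 8.16, so that the AHR lines stood apart from V as labelled. Of the epithelial markers, KRT8 lay between 2359 and 3330 CPM and CDH1 between 103 and 179 CPM in all libraries, whereas KRT19 stayed at or under 0.536 CPM and EPCAM at or under 1.75 CPM. Of 5 lung lineage markers, NAPSA was between 2.80 and 4.51 CPM, and NKX2-1, SFTPA1, SFTPB and SFTPC were at or under 0.381 CPM in every library.

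ANPEP (ENSG00000166825) spans bases 89784895 to 89815401 of chromosome 15 (GRCh38, minus strand). RefSeq gives it 2 starts, 8224 bases apart, and the sequence before them is shown because the lines differ in a DNA-binding receptor and ANPEP differs between them. The core of the AHR response element is GCGTG, which reads CACGC on the other strand. Windows from 250 bases before to 50 after each RefSeq start (GRCh38.p14) were searched for it on both strands, and capitals mark the match. The upstream start is at 89814852, where 3 of 10 annotated ANPEP transcripts begin within 50 bases, and its window holds no match. The first line below gives the 238 bases of that window that lie in no ANPEP exon of GENCODE 44, chr15:89814865-89815102, and 1 annotated transcript begins farther upstream, at 89815401, and has this stretch in an intron. The downstream start is at 89806628, where 0 of the 10 annotated transcripts begin within 50 bases. Its window lies wholly within ANPEP exons of GENCODE, so that only the 29 bases around its 1 match are given, chr15:89806734-89806762. The match begins at −122 from the downstream start. Both are written 5′ to 3′ on the minus strand.
ANPEP before the upstream start: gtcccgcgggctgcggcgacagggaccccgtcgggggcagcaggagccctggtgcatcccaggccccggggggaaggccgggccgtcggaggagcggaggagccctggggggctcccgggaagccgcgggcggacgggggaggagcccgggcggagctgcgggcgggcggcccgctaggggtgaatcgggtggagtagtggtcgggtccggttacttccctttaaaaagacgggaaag
ANPEP site before the downstream start: tccccaggcggaGCGTGcccctgcccagt

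The same core was found in at least 1 window of 6 of the 9 genes, namely ANPEP, DPP4, MME, ERAP1, ERAP2 and NPEPPS. It was in 6 of their 18 windows, and in 36.5% of all 35116 RefSeq windows, so its presence does not set these genes apart. The longer form TNGCGTG was in none of the 18 windows and in 5.51% of all windows. ERAP1 and NPEPPS each had 2 matches in 1 window. A match describes the letters and is not a measured binding site, and no binding was measured in these data.

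ANPEP was the member with large differences between lines. Its V libraries were at 14.7, 15.4 and 13.8 CPM, from 143, 145 and 131 counts. The WT libraries were at 63.0, 54.7 and 58.7 CPM. In SA they were at 68.3, 63.3 and 64.4 CPM, and in SD at 77.5, 65.9 and 74.7 CPM. No AHR library came near the V libraries, the highest V value being 15.4 CPM and the lowest AHR-line value 54.7 CPM. The means were 14.6 ± 0.805 CPM in V, against 58.8 ± 4.17 for WT, 65.3 ± 2.66 for SA and 72.7 ± 6.02 for SD. Relative to the V mean, ANPEP was 4.02-fold higher in WT, 4.47-fold in SA and 4.97-fold in SD. On the log2 scale the fitted fold changes were 2.00 (standard error 0.094) for WT, 2.16 (0.087) for SA and 2.32 (0.094) for SD, and these values are a description, since ANPEP was chosen by them. Over 12 alternatives in each comparison they lay between 1.95 and 2.06, between 2.12 and 2.20 and between 2.27 and 2.38. The V libraries are shared by all 3 comparisons.

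**Figure D1:**
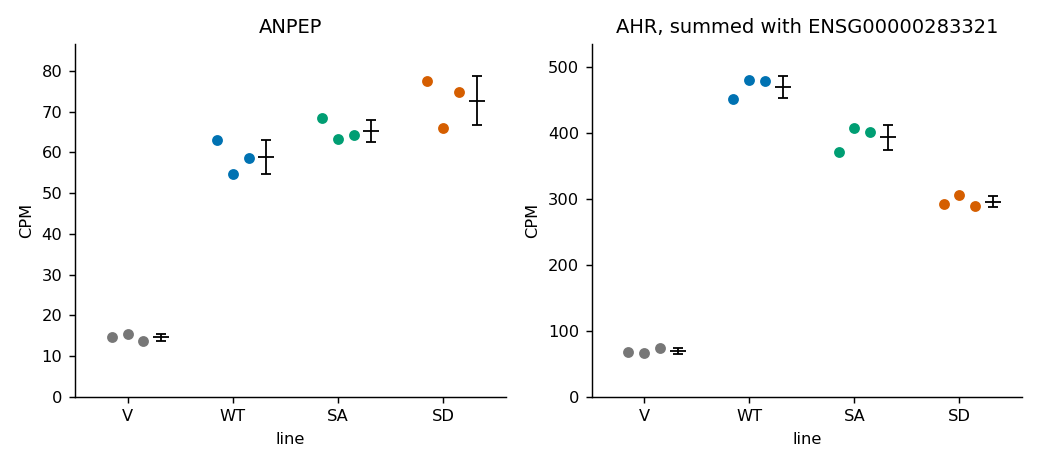
CPM of ANPEP (left) and of AHR summed with the gene that overlaps it (right) in each line. Points are single libraries and the bars beside them are mean ± SD of 3 libraries. ANPEP lies between 13.8 and 15.4 CPM in V and between 54.7 and 77.5 CPM in the AHR lines, with the highest mean in SD, while the AHR sum is highest in WT.

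The size of the ANPEP rise was set against the other genes of each comparison. By fitted log2 fold change, ANPEP had rank 5 of 14772 genes tested in WT against V, rank 6 of 14913 in SA against V and rank 11 of 14890 in SD against V. It was therefore not the gene with the largest rise after AHR in these fits. Among the 10273 genes with a mean of at least 10 CPM over all libraries, it had rank 3 in WT and SD and rank 2 in SA. The genes above it were ENSG00000283321, which overlaps AHR, and in WT and SD also RGPD6, which belongs to a family of near-identical copies and is uncertain for that reason. The row of AHR itself was not among the genes above ANPEP there.

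ANPEP was chosen against V, from the same AHR libraries, and not by a difference between the AHR lines, so these differences were tested with edgeR over all genes. The log2 fold change of ANPEP for SD against WT was 0.31 (standard error 0.078, ratio of means 1.24), and the lowest SD library, at 65.9 CPM, was above the highest WT library, at 63.0 CPM. Its unadjusted p was 0.000510 and its adjusted p 0.0597, so it did not pass the threshold of 0.05. DESeq2 gave 0.0501. The call was made with genes of at least 1 count (adjusted p 0.01), with at least 10 counts in every library (0.0352), with all 12 libraries in one fit (0.0367) and with the replicate number as a block (0.0139). Among WT, SA and SD, libraries of one number deviated weakly together (correlations of 0.017 to 0.055). The reported fit leaves this out and the block takes it in. The call differed with that choice, and also with the count filter and with the libraries fitted. With 1 library left out, the call was not made. The adjusted p then lay between 0.05, at the threshold, without SD replicate 2 and 0.246 without WT replicate 2. The log2 fold change lay between 0.26 and 0.37. SD exceeded SA by 0.16 (standard error 0.074, adjusted p 0.574), with overlapping libraries. WT differed from SA by −0.16 (standard error 0.072, adjusted p 0.679), although the highest WT library, at 63.0 CPM, lay below the lowest SA library, at 63.3 CPM. The order of the ANPEP means was SD, SA, WT and V, and no neighbouring pair among the AHR lines differed past the threshold. The AHR sum had the order WT, SA, SD and V. The part of the AHR level in these differences was not tested.

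Of the 6 members with enough counts to be tested, 0 passed an adjusted p under 0.05 in SD against WT with edgeR. There 0.708% of 14828 genes passed with edgeR (0.513% higher and 0.196% lower in SD). DESeq2 also called 0 members, but it gave no adjusted p for ERAP1 and ERAP2 in SD against WT. For edgeR, the counts at an unadjusted p follow. The unadjusted p was under 0.05 for 2 of them, ANPEP and ERAP1, and for 10.6% of all genes tested. In SD against SA 0 of 6 passed with either tool, beside 0.22% of 15030 genes (0.16% higher and 0.0599% lower in SD), and the unadjusted p was under 0.05 for 1, ANPEP, and for 8.52% of all genes. In WT against SA 0 of 6 passed with either tool, beside 0.0803% of 14942 genes (0.0201% higher and 0.0602% lower in WT), and again 1, ANPEP, was under 0.05 unadjusted, beside 7.31% of all genes. With so few genes called anywhere, a count of 0 among 6 does not differ from the background.

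Against V, the 5 tested members other than ANPEP did not pass the threshold in any AHR line. The count was 0 of 5 in WT against V, beside 5.24% of 14772 genes, 0 of 5 in SA against V, beside 7.17% of 14913 genes, and 0 of 5 in SD against V, beside 5.41% of 14890 genes. DESeq2 also called 0 in each. At an unadjusted p under 0.05 the counts were 0, 1 (LNPEP) and 0, beside 17.4%, 20% and 17.4% of all genes. Their log2 fold changes ranged from −0.13 to 0.066 in WT (median −0.012, all genes 0.0018), from −0.14 to 0.050 in SA (median 0.019, all genes −0.0024) and from −0.044 to 0.22 in SD (median 0.012, all genes 0.0030). The ANPEP rise of more than 2 log2 units in SA and SD stood beside differences of 0.22 or less in the 5 other members that could be tested.

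**Figure D2:**
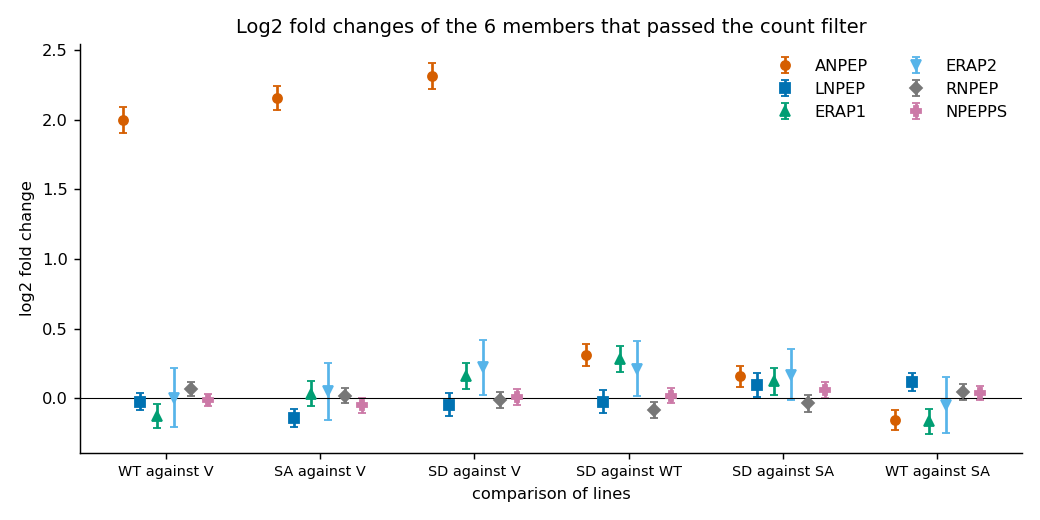
Log2 fold changes of the 6 members that passed the count filter, in the 6 comparisons of lines on the horizontal axis. Bars are standard errors from edgeR. ANPEP is at 2.00, 2.16 and 2.32 against V, and every other point lies between −0.16 and 0.31.

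The 3 other surface peptidases were at or near the limit of detection, and none passed the filter on low counts in any comparison. ENPEP (ENSG00000138792, glutamyl aminopeptidase, chromosome 4 from 110365733 to 110565285, plus strand) had between 3 and 13 counts per library (median 5). Its means were 0.627 ± 0.314 CPM in V, against 0.616 ± 0.272 for WT, 0.517 ± 0.270 for SA and 0.721 ± 0.595 for SD, and the lines overlapped. DPP4 (ENSG00000197635, chromosome 2 from 161992245 to 162074215, minus strand), which inactivates incretin hormones and several chemokines, had between 0 and 11 counts (median 5), and was at 0 in 2 libraries, V replicate 2 and WT replicate 1. Its means lay between 0.242 CPM in V and 0.548 CPM in SA, around the limit that a count of 0 allows. MME (ENSG00000196549, neprilysin, chromosome 3 from 155024124 to 155183729, plus strand) had 1 count in SA replicate 2 and 0 counts in the other 11 libraries. Differences between the lines in these 3 genes were not detectable at this depth. In a fit of all genes with 1 count or more, the adjusted p of ENPEP was between 0.884 and 1.00 and that of DPP4 between 0.663 and 0.996 over the 6 comparisons, and that of MME between 0.727 and 0.827 in the 3 comparisons with SA. The highest value of ENPEP in any library was 1.39 CPM and that of DPP4 0.965 CPM, both far below the lowest of ANPEP, 13.8 CPM.

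ERAP1 (ENSG00000164307, chromosome 5 from 96760810 to 96808100, minus strand) trims long peptides for MHC class I. It was at 33.5, 34.4 and 33.1 CPM in V and at 30.4, 31.8 and 30.2 CPM in WT, so that the WT libraries lay below those of V. In SA it was at 38.7, 32.6 and 32.5 CPM, and in SD at 42.3, 34.8 and 35.5 CPM, where replicate 1 of each line stood above the other two. SD exceeded WT without overlap, and edgeR fitted a log2 difference of 0.28 (standard error 0.095, unadjusted p 0.00623, adjusted p 0.214). Over the alternatives the adjusted p lay between 0.145 and 0.561, except for DESeq2, which gave none. Of its annotated exonic bases, 3.76% are shared with exons of CAST on the opposite strand, a gene at 283 to 326 CPM. Whether the counting used strand is not given in the sources used here, so reads of that stretch are uncertain.

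ERAP2 (ENSG00000164308, chromosome 5 from 96875939 to 96919716, plus strand), the relative next to ERAP1 that prefers other amino-terminal residues, was much lower. Its V libraries were at 5.96, 5.94 and 5.36 CPM, those of WT at 5.46, 6.14 and 5.68, those of SA at 5.71, 5.89 and 6.27, and those of SD at 7.11, 6.43 and 6.59. The SD libraries lay above all the others. The log2 fold change in SD was 0.22 against V (standard error 0.20, adjusted p 0.629), 0.21 against WT (0.19, adjusted p 0.761) and 0.17 against SA (0.19, adjusted p 0.856), each close to its standard error or below it.

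LNPEP (ENSG00000113441, chromosome 5 from 96935394 to 97037513, plus strand), also known as oxytocinase or insulin-regulated aminopeptidase, resides in vesicles that move to the cell surface. It was at 84.1 ± 4.78 CPM in V, against 82.8 ± 3.19 for WT, 76.3 ± 2.62 for SA and 81.6 ± 12.2 for SD. The 3 SA libraries, from 74.2 to 79.3 CPM, lay below the 3 V libraries, from 80.6 to 89.6 CPM. The log2 fold change of −0.14 (standard error 0.065, unadjusted p 0.0387, adjusted p 0.216) did not pass the threshold. In SD, replicate 1 was at 95.5 CPM and the others at 76.6 and 72.6, so the spread within SD was larger than any difference between the line means. ERAP1, ERAP2 and LNPEP lie next to each other on chromosome 5.

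RNPEP (ENSG00000176393, chromosome 1 from 201982372 to 202006147, plus strand) removes arginine and lysine from peptides. It was at 176 ± 5.91 CPM in V, against 184 ± 9.30 for WT, 178 ± 11.1 for SA and 174 ± 6.63 for SD, with overlap between all lines. Its log2 fold changes ran from −0.081 in SD against WT to 0.066 in WT against V, with adjusted p-values of 0.661 and 0.561. Of its exonic bases, 18.4% are shared with ELF3-AS1 on the opposite strand, which was at 8.51 to 12.5 CPM. NPEPPS (ENSG00000141279, chromosome 17 from 47522942 to 47623276, plus strand), the puromycin-sensitive aminopeptidase of the cytosol, was at 249.6 ± 11.05 CPM in V, against 248 ± 3.03 for WT, 241 ± 14.7 for SA and 251 ± 13.2 for SD. Its log2 fold changes lay between −0.050 and 0.060, the adjusted p being 0.663 or more. RSEM gave NPEPPS fractional counts in each of the 12 libraries. ENSG00000274487, read here as a possible copy of NPEPPS, also had fractional counts in all 12. It held 144 to 249.3 counts per library beside 1924 to 3015 of NPEPPS. Whether they share reads was not tested, so any split between them is uncertain.

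**Figure D3:**
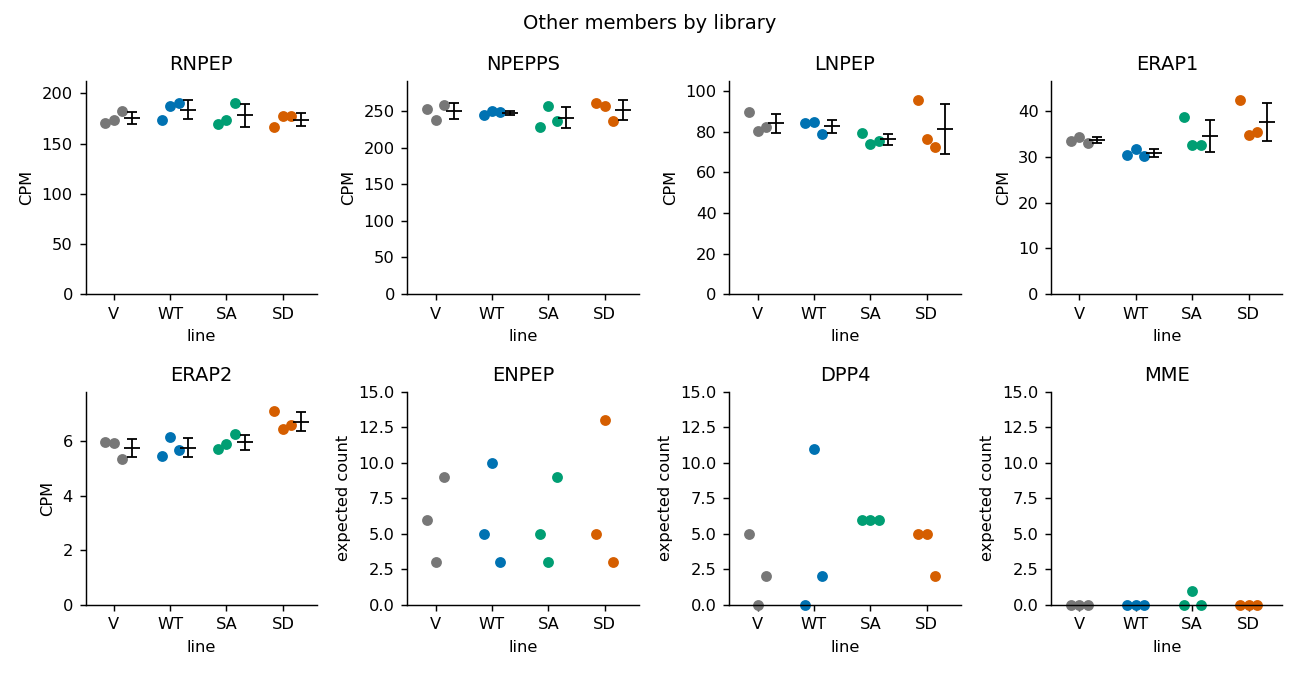
Values of the 8 members other than ANPEP by library and line. The panels of RNPEP, NPEPPS, LNPEP, ERAP1 and ERAP2 give CPM with mean ± SD of 3 libraries beside the points, and the panels of ENPEP, DPP4 and MME give expected counts without a mean. RNPEP, NPEPPS and LNPEP overlap between most lines, ERAP2 is highest in the SD libraries, and MME has 1 count in all.

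Levels were compared between genes per kilobase of annotated exon. Over all 12 libraries RNPEP was highest, at 51.4 ± 2.38 CPM per kilobase, followed by NPEPPS at 16.1 ± 0.687 and ANPEP at 10.5 ± 4.73. LNPEP was at 5.43 ± 0.443 CPM per kilobase, ERAP1 at 4.30 ± 0.436, ERAP2 at 0.870 ± 0.0716, ENPEP at 0.0803 ± 0.0439 and DPP4 at 0.0275 ± 0.0195. The libraries of LNPEP and ERAP1 overlapped, as did those of NPEPPS and ANPEP, of ENPEP and DPP4, and of DPP4 and MME. The ANPEP range, from 2.73 to 15.4 CPM per kilobase over all libraries, also enclosed those of LNPEP and ERAP1. In V, ANPEP was at rank 5 of the 9 genes with 2.90 CPM per kilobase, below ERAP1 at 4.24 and LNPEP at 5.62. In WT, SA and SD it was at rank 3, with 11.7, 12.9 and 14.4 CPM per kilobase. The order over all libraries was the same with the length of the longest annotated transcript in place of all exons.

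**Figure D4:**
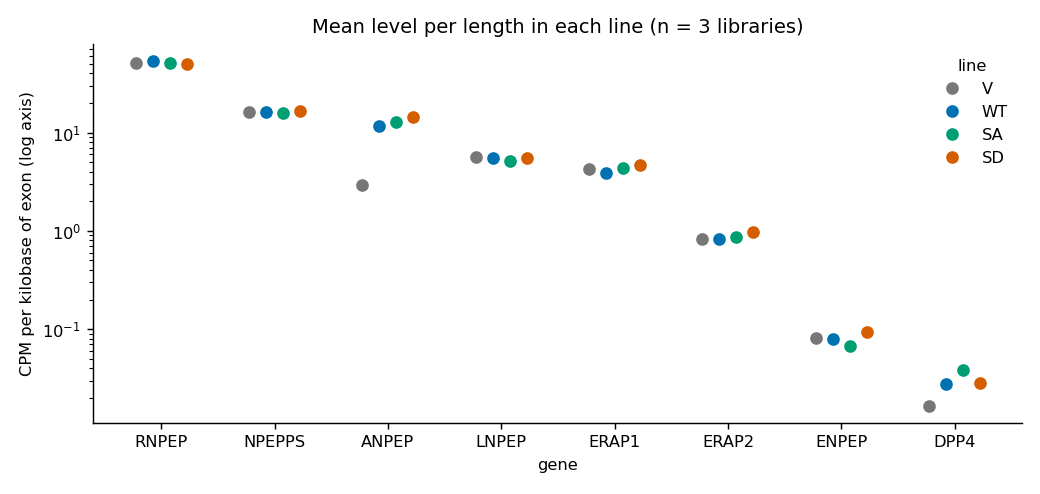
Mean CPM per kilobase of exon in each line (3 libraries each), on a log axis, for the 8 members other than MME, which had 1 count in all. ANPEP moves from 2.90 in V to between 11.7 and 14.4 in the AHR lines, and the points of the 5 other genes that passed the count filter lie close together.

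Related peptidases were read from 5 lists with 44 genes in all. Against V, 0 of 29 tested genes passed in WT with edgeR, 3 of 29 in SA and 2 of 28 in SD, all of them higher, where 2.31%, 3.88% and 2.92% of all genes tested passed as higher and 2.93%, 3.29% and 2.49% as lower. The median log2 fold change of the tested genes was 0.056 for WT, 0.052 for SA and 0.055 for SD. Between the AHR lines 0 of 29 passed in SD against WT, 0 of 29 in SD against SA and 0 of 30 in WT against SA. DESeq2 called 1 gene in SA against V (DNPEP), 2 in SD against V (CTSC and TPP1) and 0 in each of the other comparisons. At an unadjusted p under 0.05, the edgeR counts against V were 3 of 29 for WT, 7 of 29 for SA and 8 of 28 for SD, beside the 17.4%, 20% and 17.4% of all genes given above. Between the AHR lines they were 3 of 29 (SD against WT), 4 of 29 (SD against SA) and 3 of 30 (WT against SA), beside 10.6%, 8.52% and 7.31%. No test was made of these shares. Of the other M1 aminopeptidases, 3 of 5 could be tested, and LVRN and TRHDE were at or under 0.702 CPM in every library. RNPEPL1, a close relative of RNPEP, rose in SA, from 79.6 ± 2.95 CPM in V to 92.7 ± 0.814, where edgeR fitted 0.22 on the log2 scale (standard error 0.062, adjusted p 0.0279). It was at 77.8 ± 5.99 CPM in WT and 76.1 ± 1.25 in SD, with adjusted p-values of 0.228 for WT against SA and 0.0761 for SD against SA. The call was lost with DESeq2 (0.0583) and when replicate 1 or 2 of V or replicate 2 or 3 of SA was left out (0.0720 to 0.147).

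Of the 15 other aminopeptidases, 14 were tested. DNPEP, which removes acidic residues in the cytosol, rose in SA from 34.4 ± 2.53 CPM in V to 45.6 ± 2.13, by 0.40 on the log2 scale (standard error 0.082, adjusted p 0.00189), which stayed a call under all 12 alternatives. PEPD, the dipeptidase that splits off carboxy-terminal proline, rose in SA from 72.6 ± 0.798 to 84.4 ± 4.49 CPM, by 0.22 (0.065, adjusted p 0.0376). That call was lost with DESeq2 (0.0871) and when any 1 V library or replicate 2 or 3 of SA was left out (0.0841 to 0.170). CTSC, a lysosomal dipeptidyl peptidase that activates granule serine proteases, rose in SD from 85.6 ± 3.71 to 109.8 ± 6.38 CPM, by 0.36 (0.065, adjusted p 0.000609), and was called under all 12 alternatives. TPP1, the lysosomal tripeptidyl peptidase, rose in SD from 81.8 ± 6.20 to 98.3 ± 5.15 CPM, by 0.27 (0.068, adjusted p 0.0182). Without V replicate 2, V replicate 3, SD replicate 1 or SD replicate 2 the adjusted p of TPP1 was between 0.0510 and 0.133. The largest of these 5 changes, that of DNPEP, compares with 2.16 for ANPEP in the same comparison. The means of DNPEP, PEPD, CTSC and TPP1 also lay above V in the AHR lines without a call. DNPEP was at 36.4 CPM in WT and 41.0 in SD (edgeR adjusted p against V 0.775 and 0.0845). PEPD was at 81.8 in WT and 78.9 in SD (0.115 and 0.383). CTSC was at 96.1 in WT and 98.3 in SA (0.112 and 0.0521). TPP1 was at 89.0 in WT and 94.3 in SA (0.398 and 0.0551). Between the AHR lines, none of these genes passed.

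In the list of DPP4 relatives 6 of 9 genes were tested and 0 passed in any comparison with edgeR or DESeq2. An unadjusted p under 0.05 was seen for 2 of them in SD against V, PREPL and DPP7, and for 0 elsewhere. FAP, the closest relative of DPP4, had no count in any library. In the neprilysin list, 2 or 3 of 6 genes were tested, depending on the comparison, and 0 passed with either tool, with 1 (ECE1 in SD against V) under 0.05 unadjusted. In the list of angiotensin genes 3 or 4 of 9 genes were tested and 0 passed with either tool, with 1 under 0.05 unadjusted in SA against V (PRCP) and 2 in SD against V (PRCP and CTSA). Of the genes that make, cut or bind angiotensins, AGTR2 was at or under 0.088 CPM and MAS1 at 0. AGT, which encodes the precursor, was between 0.427 and 1.40 CPM, ACE between 0.309 and 1.45 CPM and the receptor AGTR1 between 0.965 and 2.79 CPM.

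**Figure D5:**
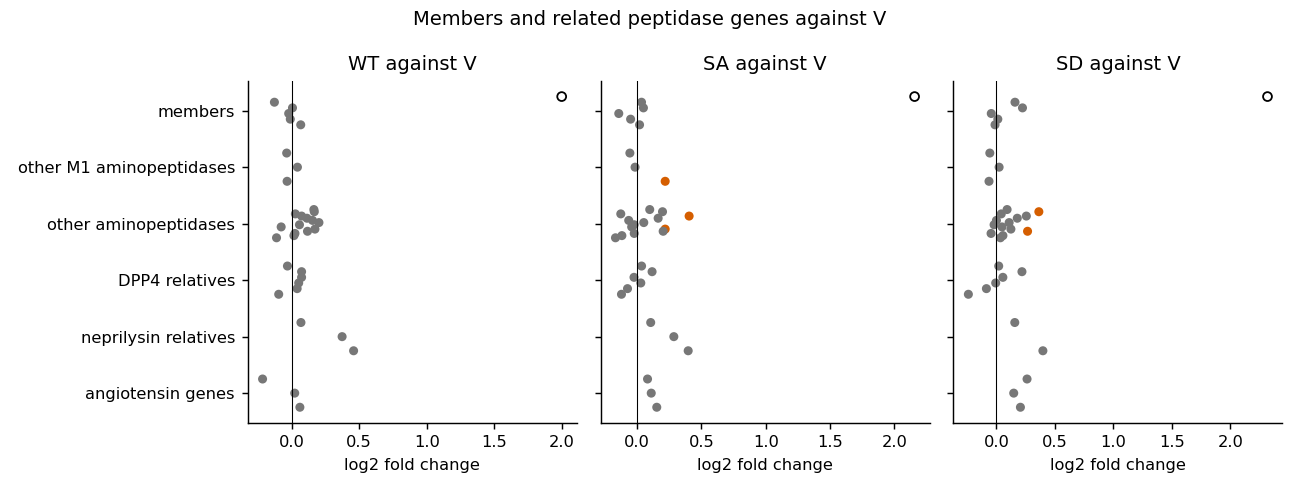
Log2 fold changes against V of the tested members and of the tested genes of 5 related lists, 1 point per gene. The open circle is ANPEP, which has no test here, orange points passed an adjusted p under 0.05 with edgeR, and grey points did not. ANPEP lies at 2.00, 2.16 and 2.32, and the orange points lie between 0.22 and 0.40.

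Genes whose 3 log2 fold changes against V were closest to those of ANPEP were found by Euclidean distance over 14571 genes tested in all 3 comparisons. Leaving out AHR and the gene that overlaps it, they were SELPLG (distance 0.88), ST7-AS1 (0.95), SLCO2B1 (0.98), CD22 (1.03) and COL17A1 (1.12). Their levels were far lower than that of ANPEP. SELPLG was at 0.492 ± 0.504 CPM in V and 1.94 ± 0.474 in SD, and CD22, the highest of them, at 1.08 ± 0.540 in V and 4.40 ± 0.715 in WT. These genes are named for their likeness in 4 lines that share the V libraries, and no test was made of it.

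ANPEP is also a marker of other cell types, and markers of such cells were read beside it. Of 4 leukocyte markers, CD33 was at 0 in all libraries and PTPRC at or under 0.171 CPM, while the CD14 mean was 12.3 ± 0.825 CPM for V, 15.3 ± 0.733 for WT, 15.2 ± 2.16 for SA and 18.5 ± 3.40 for SD, and ITGAM was between 1.72 and 4.32 CPM. CD14 passed the test in SD against V (log2 fold change 0.60, standard error 0.14, adjusted p 0.00947), a call lost without V replicate 3 (0.0610) or SD replicate 3 (0.112). The sum of the 4 was 13.4 to 14.7 CPM in V, against 17.9 to 18.9 for WT, 15.9 to 19.8 for SA and 18.2 to 24.5 for SD. Of the fibroblast markers DCN was at 0 and PDGFRB at or under 0.980 CPM, and COL1A1 fell in WT, from 11.4 ± 1.59 to 6.55 ± 1.09 CPM (log2 fold change −0.79, adjusted p 0.00649, and 0.0728 without V replicate 1). It also fell in SA, to 7.51 ± 0.629 CPM (−0.60, adjusted p 0.0278), a call lost with DESeq2 (0.0946) and when replicate 1 or 2 of V or of SA was left out (0.0566 to 0.181). In SD it was at 8.02 ± 1.22 CPM (−0.50, adjusted p 0.0928). The sum of the 3 fibroblast markers was 9.89 to 13.5 CPM in V, against 5.72 to 7.46 for WT, 7.52 to 8.21 for SA and 7.08 to 9.98 for SD. The sum of the 2 endothelial markers, PECAM1 and CDH5, was at or under 0.316 CPM in every library. PTPRC, CD33, DCN, PECAM1 and CDH5 were at or near 0 in the lines where ANPEP was high, whereas CD14, ITGAM and COL1A1 were not. Among the epithelial markers KRT8, KRT18 and CDH1 fell in all 3 AHR lines, by log2 fold changes from −0.33 to −0.60, with adjusted p-values of 3.84e-05 or less, and the calls held under all 12 alternatives. The part of these marker differences in the ANPEP values was not tested.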

How the data were processed

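Reads were trimmed by the authors with Trimmomatic 0.39 and mapped to GRCh38 transcripts with RSEM, and the expected count of each gene was deposited without normalization. The authors' second table holds their own log2 fold changes and p-values and was not used. Expected counts were rounded and the 6 libraries of a pair of lines were fitted in edgeR 4.0.16 (R 4.3.3) with filterByExpr (minimum count 10, total 15), TMM and the two-sided quasi-likelihood test, with Benjamini-Hochberg adjustment over all genes tested. Standard errors were derived from the F statistics. Tests were tried on simulated data. Totals ranged from 7844045 to 11765576 counts. Alternatives were other count filters, DESeq2 1.42.0 or its size factors, all 12 libraries, a replicate block and each library left out. Members and lists were chosen with earlier results of these data known. Named genes are the members, called genes of the lists, markers, and the 5 genes nearest to ANPEP. Exons are those of GENCODE 44, in which 5 of 9 members have the deposited coordinates. Sequences are from RefSeq (GRCh38.p14). Protein sequences were not used here. Of the list of angiotensin genes, 2 are not reported here.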

Additional observations from a re-analysis of the deposited data

How the results depend on the processing

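Under the alternatives, 409 log2 fold changes of the 6 members that passed the count filter kept their direction and, where tested, their side of the threshold, and 4 became significant. The 409 include ERAP1 and ERAP2 in SD against WT with DESeq2, which gave them no adjusted p, so only their direction was compared. The ANPEP difference in SD against WT, with 0 members called in the reported fit, passed with genes of at least 1 count (0.31, 1 member called), at least 10 counts in every library (0.32, 1 member), all 12 libraries (0.31, 1 member) and the replicate block (0.31, 1 member). Over all lines, deviations from the line mean correlated weakly between libraries of one number (−0.04 to 0.11, median 0.02, over 18 pairs). Different numbers gave −0.099 to 0.065 (median −0.01, over 36 pairs), and 6 of 12 libraries correlated best with their own number. Among WT, SA and SD alone, every correlation of one number was positive, from 0.017 to 0.055. The highest of different numbers there was 0.012, so these lines shared a weak part by number. The reported fit takes no pairs and leaves this part out. The block changed no call of a member other than that of ANPEP in SD against WT. With single libraries left out, 0 members passed in any comparison. The direction then turned 19 times, in uncalled values near 0: in WT against V for LNPEP (−0.051 to 0.024), ERAP2 (−0.046 to 0.040) and NPEPPS (−0.045 to 0.013), in SA against V for ERAP1 (−0.047 to 0.078) and RNPEP (−0.032 to 0.056), in SD against V for LNPEP (−0.17 to 0.036), RNPEP (−0.032 to 0.019) and NPEPPS (−0.023 to 0.054), in SD against WT for LNPEP (−0.15 to 0.057) and NPEPPS (−0.0088 to 0.064), and in SD against SA for LNPEP (−0.033 to 0.18) and RNPEP (−0.068 to 0.018).

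Over all genes, calls numbered 774 in WT against V (507 with the block), 1069 in SA against V (711 with DESeq2), 806 in SD against V (499 with DESeq2), 105 in SD against WT (252 with at least 1 count and 245 with the block), 33 in SD against SA (153 and 165) and 12 in WT against SA (103 and 25, and 5 with all 12 libraries). Without single libraries they ranged from 434 to 720, 621 to 1195, 502 to 856, 45 to 145, 11 to 56 and 2 to 25 in the same order. The cause was not tested. Depth limits ENPEP, DPP4 and MME, whose counts per library did not exceed 13.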
